A study of Mus musculus with 8 samples.

Results

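The genes described here are a hand-picked set of 40 genes of cell division, covering the cyclins and kinases that start mitosis, the spindle, the kinetochores, the spindle checkpoint and the final cut between daughter cells. A gene was measured by the probe set to which the platform annotation gives that 1 symbol, and by the one with the highest mean where there were several. This found 39 of the 40 among 19938 genes, and Ccnb1 is not analysed here. The set was chosen by function, but it was proposed with earlier results of these data known.

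The values come from 8 Affymetrix MoGene ST arrays in 4 groups of 2, hybridised with RNA of the mouse lines DA3, a mammary adenocarcinoma line, and MBA-15, a stromal line of pre-osteoblastic character. The groups are DA3 alone, DA3 co-culture, MBA-15 alone and MBA-15 co-culture. In co-culture DA3 was seeded on a layer of MBA-15, and the lines were parted afterwards with magnetic particles that bind the epithelial surface protein EpCAM. The bound fraction is DA3 co-culture and the unbound fraction is MBA-15 co-culture, and the sample descriptions name 24 h for all 8 arrays, while the growth protocol also names a longer time. The descriptions also number the arrays by assay, which is not explained in the sources used here, and DA3 co-culture replicate 2 is the only array of assay 5. Each line is a single established line with no genetic change or drug named in the labels, and the study concerned what bone stromal and breast carcinoma cells do to each other. All values are log2 intensities normalized between arrays, so a change says how a gene moved against the rest of its array, and in bulk RNA fewer dividing cells and less RNA per dividing cell cannot be told apart. The labels do not say whether the 2 arrays of a group are separate cultures, so the p-values measure a spread that may be technical.

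The labels were checked against 16 epithelial and 16 stromal marker genes. The epithelial markers had a mean level of 8.83 and 8.72 in DA3 alone, 8.33 and 8.56 in DA3 co-culture, and 4.95 and 4.87 in MBA-15 co-culture, where 7 and 9 of the 16 lay below the median of the array. On the pair labelled MBA-15 alone they stood at 7.61 and 8.11, far above the unbound fraction of the same line. The stromal markers stood at 5.14 and 5.24 in DA3 alone, 6.29 and 5.75 in DA3 co-culture, 7.79 and 7.81 on the pair labelled MBA-15 alone, and 8.40 and 7.98 in MBA-15 co-culture. Epcam itself, the gene of the separation antigen, was at 5.58 and 5.19 in the unbound fraction and at 8.45 and 9.25 in the lone culture by label. From 30 genes over 4 log2 units above the MBA-15 co-culture level in DA3 alone, the 2 arrays of that pair would hold 39.4% and 59.9% of DA3 RNA, and from 52 genes high in MBA-15 the shares left for DA3 were 24.1% and 44%. The labels of both lone cultures carry the word mix without saying what was mixed. Leukocyte markers (6 of 7 below the median on every array) and endothelial markers (6 of 6) were low throughout. The comparison of the stromal fraction with DA3 alone, which does not use the pair labelled MBA-15 alone as an arm, is therefore given first.

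Mitosis is driven by CDK1 bound to its cyclins, with the kinases PLK1, Aurora A and Aurora B building the spindle and joining it to the kinetochores. The spindle checkpoint holds cells until every chromosome is attached, and the anaphase-promoting complex then lets them divide by having cyclins and the inhibitor of separase destroyed. Most genes of this machinery are transcribed late in the cell cycle, and many are controlled by the MuvB complex with B-MYB and FOXM1 through a short promoter element, the cell cycle homology region, often next to a CCAAT box bound by NF-Y. These genes therefore serve as markers of dividing cells in tumours and in cultured stroma.

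The promoters are shown because this shared element is a feature that was not used to choose the set. RefSeq promoter windows of the GRCm38.p6 assembly, from 250 bases before to 50 bases after the annotated start, were found for 34 of the 39 measured genes, and the first window was taken for the 3 genes with several. The core of the cell cycle homology region was searched for on both strands as TTTGAA. On the opposite strand it reads as the letters TTCAAA in the printed windows. The NF-Y box was searched for in the same way with the letters CCAAT. A box on the opposite strand is printed as ATTGG, and a match of one element can share at most 1 end base with a match of the other. The windows below are those of 6 of the 7 genes that differed between the stromal fraction and DA3 alone, since no window was found for Tpx2. Each line gives 150 bases, from 100 before to 50 after the start, along the transcribed strand, with both elements in capitals. Aurka lies at chr2:172370521-172370670 on the minus strand, Kif23 at chr9:61946750-61946899 on the minus strand, Cenpa at chr5:30666786-30666935 on the plus strand, Ube2c at chr2:164769829-164769978 on the plus strand, Ect2 at chr3:27153829-27153978 on the minus strand and Racgap1 at chr15:99651607-99651756 on the minus strand.
Aurka: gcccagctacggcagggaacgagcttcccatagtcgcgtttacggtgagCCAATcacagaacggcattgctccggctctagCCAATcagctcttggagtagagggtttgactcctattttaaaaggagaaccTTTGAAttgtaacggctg
Kif23: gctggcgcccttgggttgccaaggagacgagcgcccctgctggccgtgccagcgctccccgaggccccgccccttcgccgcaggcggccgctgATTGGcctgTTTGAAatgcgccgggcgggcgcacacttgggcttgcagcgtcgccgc
Cenpa: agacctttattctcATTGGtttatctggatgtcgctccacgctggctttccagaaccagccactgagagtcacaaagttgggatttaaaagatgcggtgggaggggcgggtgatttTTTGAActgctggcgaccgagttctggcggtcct
Ube2c: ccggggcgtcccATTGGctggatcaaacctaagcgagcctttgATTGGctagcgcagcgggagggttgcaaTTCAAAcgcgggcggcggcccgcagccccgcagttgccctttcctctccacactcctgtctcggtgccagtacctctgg
Ect2: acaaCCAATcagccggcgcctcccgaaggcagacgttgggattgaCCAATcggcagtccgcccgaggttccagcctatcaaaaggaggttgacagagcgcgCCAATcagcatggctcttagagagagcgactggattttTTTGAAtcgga
Racgap1: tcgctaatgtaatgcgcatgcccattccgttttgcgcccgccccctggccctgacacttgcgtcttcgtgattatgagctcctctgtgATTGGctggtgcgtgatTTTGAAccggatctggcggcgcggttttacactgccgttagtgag
All 6 printed stretches held 1 TTTGAA element and between 1 and 3 CCAAT elements. In Aurka, Kif23, Cenpa, Ect2 and Racgap1 the TTTGAA element began after the start, at bases 33, 3, 17, 40 and 6, and in Ube2c it lay on the other strand and began at base -29.

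Over the whole window, 26 of the 34 genes (76.5%) held TTTGAA, against 15.0% of the windows of 15529 other genes. In the 100 bases around the start, from 50 before to 50 after, 25 of 34 (73.5%) held it against 3.67% of the others. CCAAT was in 25 of the 34 whole windows (73.5%) against 38.2%, and both elements together were in 21 (61.8%) against 6.0%. A match of letters is not a bound site, and these shares describe the sequence, not the activity of any factor. The 26 genes with TTTGAA had a median change between the stromal fraction and DA3 alone of -0.22 (range -1.69 to 0.67), and the 8 genes without it one of -0.49 (range -1.03 to 0.32). All 6 genes with a window that passed in that comparison held the element and 0 of the 8 without it passed, and this was not tested. The calls are few, and the share of calls among other genes with and without the element was not counted.

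**Figure D1:**
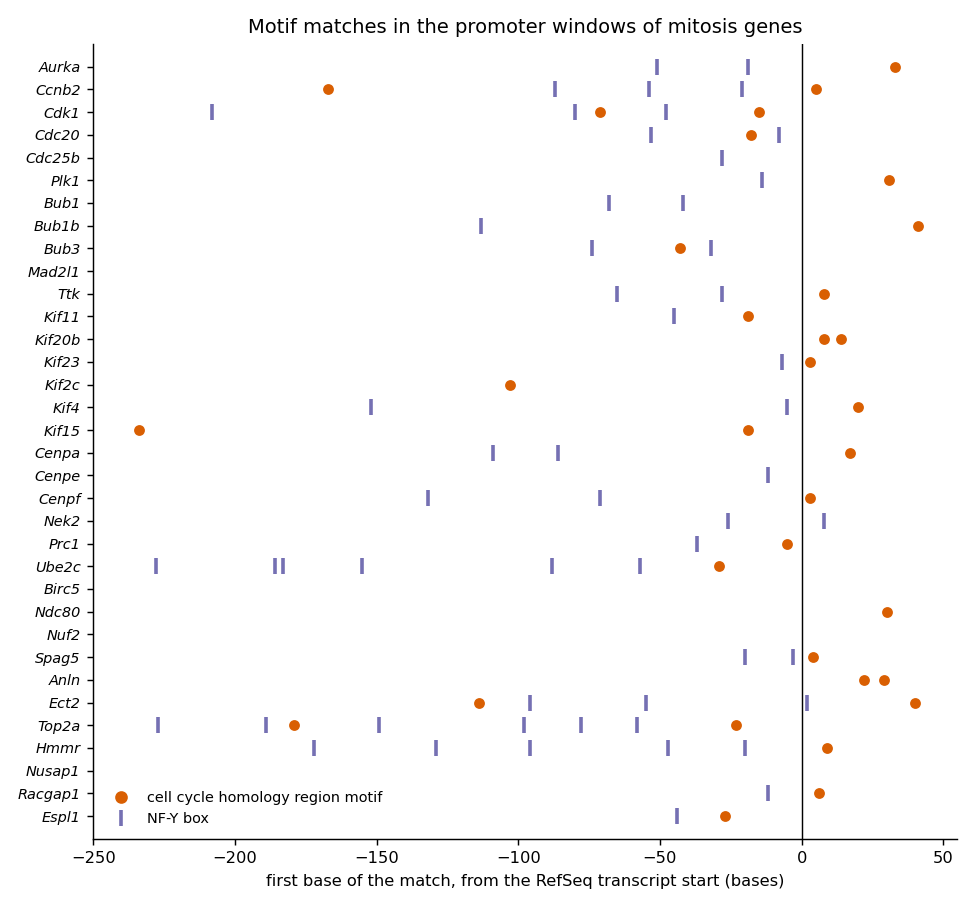
Position of each match in the promoter windows of 34 mitosis genes, in bases from the RefSeq start (vertical line), with circles for the core of the cell cycle homology region and bars for the NF-Y box. Circles gather around the start, where 25 of the 34 genes have one within 50 bases before to 50 after it.

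The 39 genes were bright in every group. None lay below the median of all genes on any array, their means over the 8 arrays ran from 6.67 to 10.13, and these means stood between the 76.2nd and the 99.1st percentile of all genes. Their median level was 8.17 and 8.26 for the DA3 alone arrays, and DA3 co-culture had 7.99 and 7.90. It was 8.06 and 8.07 on the pair labelled MBA-15 alone and 7.87 and 7.84 in MBA-15 co-culture. The group medians thus ran from DA3 alone down to MBA-15 co-culture over a narrow range. Replicate arrays of DA3 alone lay closest, with a median difference of 0.12 per gene and none above 0.5. In MBA-15 co-culture the median difference was 0.31, and 11 of the 39 genes differed by more than 0.5 between the 2 arrays, with Plk1 at 1.00, against 39.0% of the 4750 genes at or above the dimmest member in mean level. In DA3 co-culture 10 genes did so, with Cdc25b at 1.13, against 46.9%, and on the pair labelled MBA-15 alone 4 genes, against 26.1%.

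**Figure D2:**
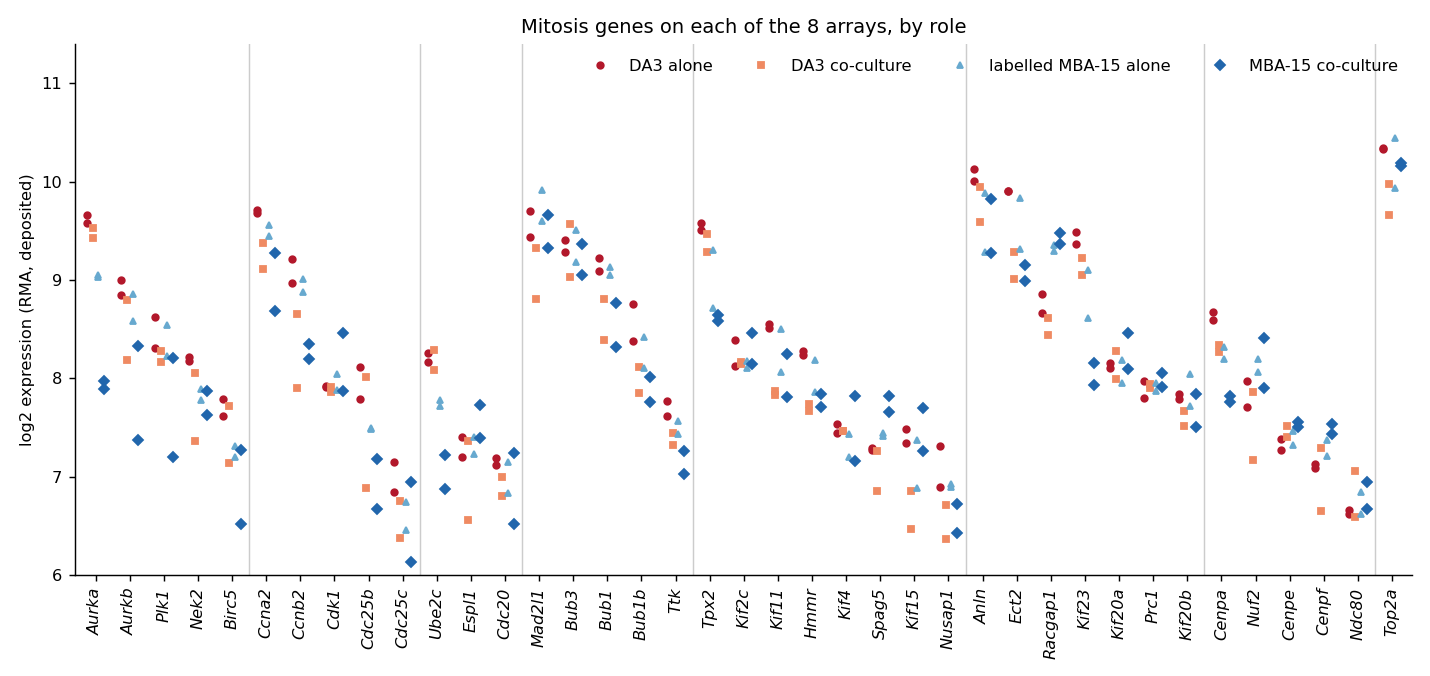
Log2 expression of each mitosis gene on each of the 8 arrays, ordered by role, with colour and shape for the culture. Roles are parted by grey lines. The levels lie between 6.13 and 10.45 in every group, and Aurka, Kif23 and Ube2c are lowest on the 2 arrays of MBA-15 co-culture.

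Between the stromal fraction of the co-culture and DA3 grown alone, 6 genes were lower in the stromal fraction and 1 was higher. The 6 were Aurka, Kif23, Ube2c, Tpx2, Cenpa and Ect2, and the higher one was Racgap1. Of all genes tested, 6.47% passed as lower and 6.08% as higher (12.6% in either direction, limma, adjusted p under 0.05), and among 4945 other genes of like mean expression 9.32% passed as lower and 6.03% as higher. The 6 lower calls in 39 are thus above both shares, and nearer to that of genes of like brightness than to that of all genes. This excess was not tested. Both stromal arrays lay below both DA3 alone arrays for 21 of the 39 genes (26.6% of all genes, 36.5% of genes of like expression), and above them for 5 (27.2% and 25.4%). The change was below 0 for 27 of 39, against 49.2% of all genes and 58.1% of genes of like expression. These groups differ in line and in culture at once, and the line and the co-culture cannot be told apart in this comparison.

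Among the kinases and the chromosome passenger complex, all 5 measured genes had a change below 0, with a median of -0.81. Aurka encodes Aurora A, the kinase of the centrosomes and spindle poles. Its level was 9.58 and 9.67 in DA3 alone, 9.53 and 9.42 in DA3 co-culture, 9.05 and 9.03 on the pair labelled MBA-15 alone, and 7.89 and 7.97 in MBA-15 co-culture. No group overlapped another, and the stromal arrays stood far below the rest. The stromal fraction was lower than DA3 alone by a log2 change of -1.69 (SE 0.12, limma adjusted p = 0.000384), and by the same -1.69 within each of assays 3 and 4, the numbers that the sample descriptions give to sets of arrays. Plk1, the kinase that drives mitotic entry and centrosome maturation, was at 8.63 and 8.31 in DA3 alone and at 8.20 and 7.20 in the stromal fraction. Its change of -0.77 did not pass (limma adjusted p = 0.21), and its 2 stromal arrays lay 1.00 apart. Birc5, which encodes the passenger protein survivin, stood at 7.61 and 7.79 against 6.51 and 7.27 (change -0.81), Aurkb had a change of -1.07 (limma adjusted p = 0.100) and Nek2, a kinase of centrosome separation, one of -0.44, and none of them passed.

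Of the 3 genes of the anaphase-promoting complex and separase, Ube2c was lower. It encodes the ubiquitin-conjugating enzyme that works with that complex, and it stood at 8.16 and 8.26 in DA3 alone, 8.08 and 8.28 in DA3 co-culture, 7.72 and 7.78 on the pair labelled MBA-15 alone, and 7.22 and 6.88 in MBA-15 co-culture. The arrays of DA3 alone and DA3 co-culture overlapped, and both stromal arrays lay below all others, with a change of -1.16 (SE 0.16, limma adjusted p = 0.00475). Cdc20, the activator of the complex, stood at 7.19 and 7.12 in DA3 alone and at 7.24 and 6.52 in the stromal fraction, which overlap. Espl1, which encodes separase, stood at 7.20 and 7.41 against 7.73 and 7.39, with a change of 0.26, and neither passed.

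Of the 7 genes of the spindle midzone and cytokinesis, 2 were lower and 1 was higher. Kif23 encodes a kinesin, and its protein and that of Racgap1 together form the centralspindlin complex that bundles midzone microtubules. Kif23 was at 9.49 and 9.37 in DA3 alone, 9.22 and 9.05 in DA3 co-culture, 8.62 and 9.10 on the pair labelled MBA-15 alone, and 8.15 and 7.93 in MBA-15 co-culture, a change of -1.39 (SE 0.19, limma adjusted p = 0.00529). Racgap1 ran the other way, with 8.85 and 8.66 in DA3 alone, 8.61 and 8.44 in DA3 co-culture, 9.35 and 9.29 on the pair labelled MBA-15 alone and 9.48 and 9.37 in MBA-15 co-culture. Its change was 0.67 (SE 0.13, limma adjusted p = 0.0220), so the genes of these partner proteins differed between the samples in opposite directions. Ect2, the cytokinesis factor that centralspindlin recruits, was at 9.91 and 9.90 in DA3 alone and at 8.99 and 9.15 in the stromal fraction, a change of -0.83 (SE 0.20, limma adjusted p = 0.0409). The other 4, Anln, Kif20a, Kif20b and Prc1, had changes from -0.51 to 0.15 and did not pass.

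The 8 spindle motors and microtubule proteins had a median change of -0.24, and 1 passed. Tpx2, the microtubule protein that activates Aurora A, was at 9.51 and 9.58 in DA3 alone, 9.29 and 9.47 in DA3 co-culture, 8.72 and 9.31 on the pair labelled MBA-15 alone, and 8.64 and 8.58 in MBA-15 co-culture. Both stromal arrays lay below all others, with a change of -0.93 (SE 0.20, limma adjusted p = 0.0291). Thus the kinase and its activator were lower in the same samples. The remaining motors spread to both sides of 0, from -0.53 for Nusap1, a protein that bundles spindle microtubules, to 0.46 for Spag5, a protein of spindle poles and kinetochores. Kif15, a spindle motor that can stand in for Kif11, was at 7.34 and 7.48 in DA3 alone and at 7.26 and 7.69 in the stromal fraction, which overlap.

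Cenpa, the histone H3 variant that marks centromeres, was the 1 gene of 5 at the centromere and kinetochore with a change below 0. Its level was 8.59 and 8.67 in DA3 alone, 8.27 and 8.34 in DA3 co-culture, 8.32 and 8.20 on the pair labelled MBA-15 alone, and 7.82 and 7.76 in MBA-15 co-culture. The stromal arrays were the lowest and the DA3 alone arrays the highest, with a change of -0.84 (SE 0.12, limma adjusted p = 0.00557). The outer kinetochore genes Ndc80, Nuf2, Cenpe and Cenpf lay at 0.17, 0.32, 0.21 and 0.37, and none passed.

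The 5 spindle checkpoint genes all had a change below 0 (median -0.55), and none passed. Bub1, a kinase that brings checkpoint proteins to kinetochores, was at 9.22 and 9.10 in DA3 alone and at 8.32 and 8.77 in the stromal fraction. Bub1b, which encodes the checkpoint protein BUBR1, was at 8.38 and 8.76 against 8.01 and 7.76, and the arrays of the compared groups did not overlap in either gene. The changes were -0.61 and -0.68, and the nearest to the threshold was Ttk, the kinase MPS1, at -0.55 (limma adjusted p = 0.0518).

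The CDK1 switch itself did not pass in any of its 5 measured genes. Cdk1 was at 7.91 and 7.93 in DA3 alone, 7.87 and 7.91 in DA3 co-culture, 8.04 and 7.88 on the pair labelled MBA-15 alone, and 7.87 and 8.46 in MBA-15 co-culture, and the stromal arrays overlapped those of DA3 alone (change 0.25, limma adjusted p = 0.582). Its partner cyclin B2, from Ccnb2, was at 8.97 and 9.21 in DA3 alone and at 8.35 and 8.20 in the stromal fraction, a change of -0.82. The phosphatase gene Cdc25b had a change of -1.03 (limma adjusted p = 0.140). Top2a, which encodes the topoisomerase that untangles sister chromatids, was the brightest of the set, at 10.33 and 10.34 in DA3 alone and 10.16 and 10.19 in the stromal fraction (change -0.16). A second Top2a probe set had a mean of 6.28 and its stromal arrays lay at 5.70 and 7.59, so the probe sets of this gene disagree in level and spread.

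**Figure D3:**
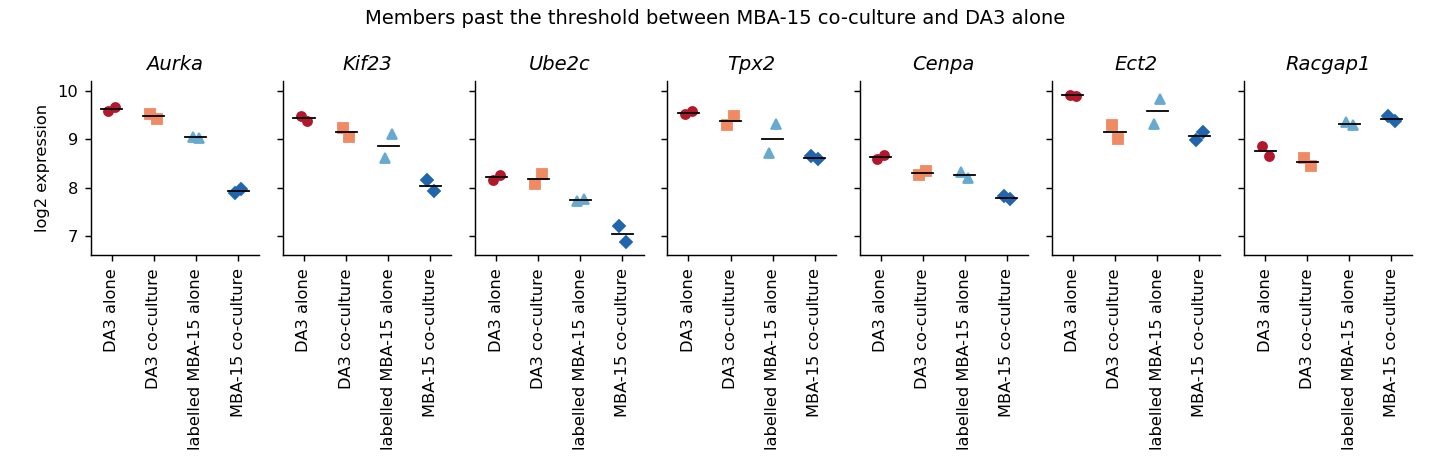
Log2 expression on each of the 8 arrays of the 7 mitosis genes that passed for MBA-15 co-culture against DA3 alone, with points for arrays and black lines for group means. MBA-15 co-culture has Aurka at 7.89 and 7.97, below the 9.58 and 9.67 of DA3 alone, and Racgap1 is the gene with the opposite order.

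Across the set the median change between the stromal fraction and DA3 alone was -0.46, against 0.00 for all genes. For the 5 of 20 equal bins of mean expression that hold the members, the median of the other genes was -0.13, and the members' median after subtraction of the median of each gene's own bin was -0.31. By this measure 24 members lay below their bin and 15 above. Bright genes were therefore lower in general in this comparison, and the quartiles of the members were -0.79 and 0.08. On unadjusted p under 0.05, 19 of 39 members counted, against 24.1% of all genes and 32.6% of genes of like expression.

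The 7 calls were not equally firm over 18 refits with other settings or without 1 array. Aurka and Ube2c passed in all 18, with a highest adjusted p of 0.00812 and 0.0484 in limma. Kif23 passed in 17, failing without DA3 alone replicate 1 (limma adjusted p = 0.0533), and Cenpa in 16, failing without DA3 alone replicate 2 and with a prior that follows intensity. Tpx2 passed in 13, Racgap1 in 12 and Ect2 in 10, and each of these was lost when any 1 of the 4 arrays compared was left out.

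On the pair labelled MBA-15 alone, all 7 of these genes lay between the stromal fraction and DA3 alone on both arrays, as did 21 of all 39. The 7 were picked for a gap between these same groups, which favours a place inside it. The share over all genes was not counted, so these counts are not read as a trait of the set. On the log2 scale from the stromal mean to the DA3 mean, Aurka stood 52.9% and 51% of the way, Ube2c 47.4% and 52.6%, Cenpa 56% and 41.3%, and Kif23 30% and 67.2%. Tpx2 stood at 8.31% and 68%, Ect2 at 23.9% and 89.1%, and Racgap1 at 13.2% and 24%. The array labelled replicate 2, which has the higher epithelial markers and Epcam, was nearer to DA3 in 5 of the 7 genes. For Aurka and Cenpa replicate 1 was the nearer one. No share over all genes was counted for this order, and DA3 RNA as its cause was not tested.

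For MBA-15 after co-culture, set against the pair labelled MBA-15 alone, 1 gene was lower and 0 were higher. It was Aurka, with 7.89 and 7.97 against 9.05 and 9.03, a change of -1.11 (limma adjusted p = 0.0123). Of all genes 0.772% passed as lower and 0.0752% as higher (0.848% in either direction), and 1.27% of the genes of like expression passed as lower. Of the epithelial markers, 13 of 16 passed as lower in the same comparison, with a median change of -3.35. DA3 RNA as a cause of the Aurka call was not tested. Mixing DA3 alone values into the co-culture arrays must raise Aurka there, because it was higher in DA3 alone, so a smaller drop was set in advance. With DA3 alone values mixed into the co-culture arrays at the shares of 39.4% and 59.9%, the change of Aurka was -0.05, and at the lower shares -0.31, and neither passed (limma adjusted p = 1.0 in both). Leaving out any 1 array of DA3 alone, MBA-15 alone or MBA-15 co-culture ended the call (limma adjusted p from 0.0543 to 0.106), while the change stayed between -1.15 and -1.07.

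The other members were spread around a median of -0.21, against 0.04 for all genes and -0.10 for genes of like expression. The change was below 0 in 26 of 39 (41.6% of all genes, 60.4% of genes of like expression), both co-culture arrays were below both others in 16 (16.1% and 25.5%) and above in 4 (22.3% and 10.8%). Ube2c at -0.70 (limma adjusted p = 0.154), Kif23 at -0.82 (0.171) and Cenpa at -0.47 (0.20) had the next lowest adjusted p, and 10 of 39 had an unadjusted p under 0.05 (9.8% of all genes, 12.9% of genes of like expression). The kinases had the lowest median of any role, -0.68, with all 5 genes below 0, and the kinetochore genes had 4 of 5 above 0. After subtraction of the bin medians the members stood at -0.14, with 23 below and 16 above their own bin. With the DA3 share mixed in, the median over members was 0.02, and with the lower share -0.09. Such mixing must raise each gene whose level was lower in the stromal fraction, which held for 27 of the 39 members. A rise of the median was thus largely set in advance, and DA3 RNA as a cause of the members' changes was not tested.

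In DA3, co-culture changed no member past the threshold, against 0.0401% of all genes (0.0301% lower and 0.01% higher), and 10 of 39 had an unadjusted p under 0.05 in limma (14.9% of all genes, 18.5% of genes of like expression). A change below 0 was nevertheless common, in 35 of 39, against 44.6% of all genes and 77.9% of genes of like expression. Both co-culture arrays lay below both DA3 alone arrays in 26 members (22.4% of all genes, 39.4% of genes of like expression) and above in 1 (31.4% and 6.05%). The lowest value was that of Ccnb2, at 7.90 and 8.66 in DA3 co-culture after 8.97 and 9.21 in DA3 alone, a change of -0.81 (SE 0.25, limma adjusted p = 0.257). It was -0.43 without DA3 co-culture replicate 1, where Ect2 (-0.89) and Kif15 (-0.95) were lower, and -1.19 without replicate 2. Ect2, at 9.91 and 9.90 against 9.29 and 9.01, had a change of -0.75 (limma adjusted p = 0.215) with tight replicates in DA3 alone. Kif15, at 7.34 and 7.48 against 6.85 and 6.47, also had a change of -0.75 (SE 0.24, limma adjusted p = 0.262).

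The checkpoint genes Bub1b (8.38 and 8.76 against 8.11 and 7.85) and Bub1 (9.22 and 9.10 against 8.39 and 8.81) had changes of -0.59 and -0.56. Top2a was at 10.33 and 10.34 against 9.98 and 9.66, a change of -0.51 (limma adjusted p = 0.311), and Nek2 at 8.21 and 8.17 against 8.06 and 7.36, one of -0.49 (0.387). The value of Nek2 was -0.14 without DA3 co-culture replicate 2, -0.83 without replicate 1 and -0.07 with assay as a block. In these genes the co-culture arrays were lower without overlap, although none passed. Near 0 stood Cdk1 at -0.03, Ube2c at -0.03, Kif4 at -0.02 and Kif20a at 0.00, and Ndc80 had the highest change, 0.19. Espl1, at 7.20 and 7.41 against 7.36 and 6.56, and Birc5, at 7.61 and 7.79 against 7.72 and 7.14, had co-culture arrays that overlapped the controls.

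The members' median change in DA3 was -0.30, against 0.04 for all genes. The other genes in the same bins of expression had a median of -0.26, and the members' median less that of their own bin was -0.06, with 23 below and 16 above it. The median of the set in DA3 co-culture was thus close to that of genes of the same brightness. Stromal markers were higher on the same arrays, with a median change of 0.74 and 15 of 16 above 0, and their part in the result was not tested. With the values quantile-normalized again the members' median was -0.05 and 24 of 39 changes were below 0, and the direction flipped for Cdk1, Aurka, Cdc20 and Birc5 among the genes named.

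**Figure D4:**
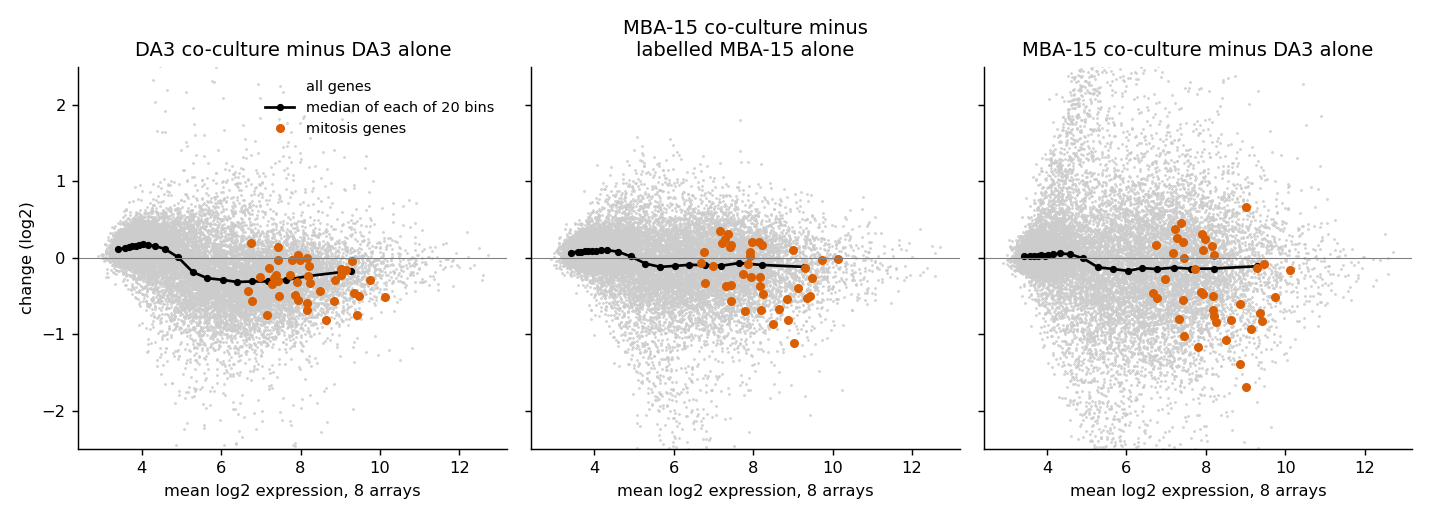
Change of each mitosis gene against its mean log2 expression in each co-culture comparison and against DA3 alone, with a line for the median change of all genes in each of 20 bins of mean expression and grey points for all genes (points beyond the axis are not drawn). In DA3 the members scatter about that line (median -0.06 from it), and against DA3 alone the stromal fraction has 24 members below it and 15 above.

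The change in DA3 minus the change in MBA-15, tested as an interaction in limma, passed for no member, against 0.0602% of all genes, and 3 of 39 had an unadjusted p under 0.05 (6.32% of all genes). A value below 0 was found in 26 of 39, against 47.7% of all genes and 61.4% of genes of like expression. The members' median was -0.19, against 0.02 for all genes and -0.13 for genes of like expression. Aurka had the highest value, 0.96 (limma adjusted p = 0.198), and Kif15 the lowest, -1.10 (0.578), with co-culture changes of -0.75 in DA3 and 0.35 in MBA-15. Ube2c stood at 0.67. The median role value was 0.44 for the kinases and -0.29 for the spindle motors, where 7 of 8 were below 0. The arrays labelled MBA-15 alone enter this difference with the marker levels given above.

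**Figure D5:**
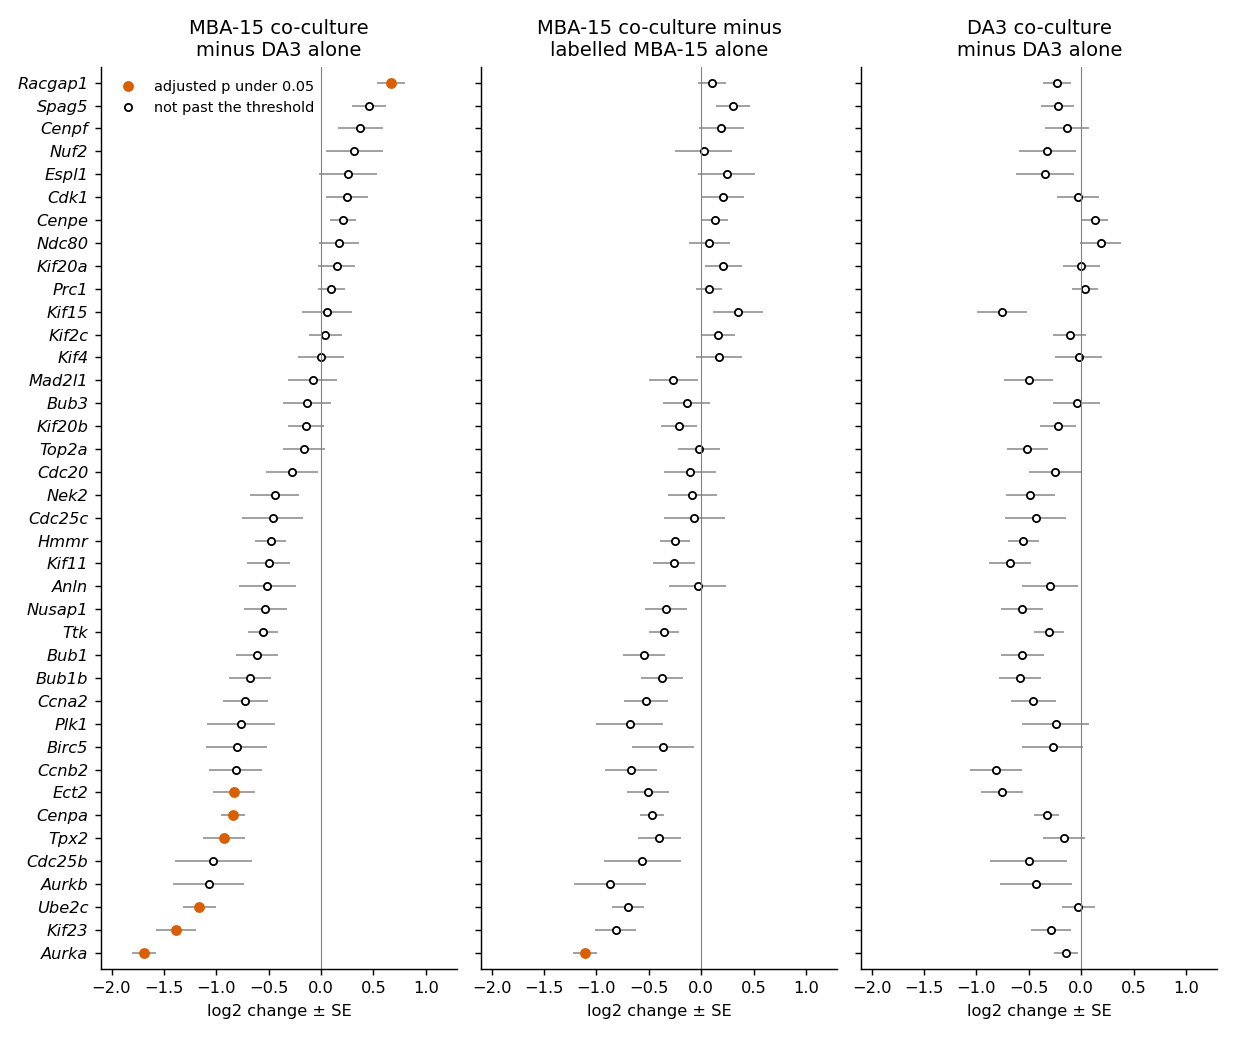
Log2 change of each mitosis gene in the comparison with DA3 alone, in MBA-15 and in DA3, with limma standard errors and filled points where the adjusted p is under 0.05. Filled points are Aurka for MBA-15 and 7 genes for MBA-15 co-culture against DA3 alone, and there are none for DA3.

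The wider pathway was read from lists of other genes. Of 67 further mitotic genes, none passed in DA3 or MBA-15, and between the stromal fraction and DA3 alone 6 were lower and 2 higher (median -0.27). Of all genes 6.47% were lower and 6.08% higher, and of genes as bright as the 39 the shares were 9.32% and 6.03%. Some of the 67 are dimmer than any of the 39, such as Cenpw at 4.48 and 4.77 in DA3 alone. The shares for genes as bright as the 39, here and below, are thus not matched to this list. The lower ones were Dsn1 and Spc24 of the outer kinetochore (-0.83 and -1.11), Ncaph of condensin (-1.24), Pttg1, the inhibitor of separase (-1.17), Tacc3 of the spindle (-0.81) and Fam83d (-1.04). The higher ones were the centromere genes Cenpk (0.77) and Cenpp (1.59), and the proliferation antigen gene Mki67 lay at 0.08. In DA3 62 of the 67 had a change below 0 (median -0.42), against 44.6% of all genes and 77.9% of genes as bright as the 39. In MBA-15 45 had one (median -0.15), against 41.6% and 60.4%.

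Among 16 transcription regulators of the cell cycle, Mybl2, which encodes B-MYB, was lower in the stromal fraction than in DA3 alone, at 6.89 and 6.32 against 8.15 and 7.51 (change -1.23, SE 0.26, limma adjusted p = 0.0277). E2f1 at -1.51 and E2f8 at -1.39 were lower too, and Lin9, a subunit of MuvB, was higher at 0.78. Foxm1 had a change of -0.63 and did not pass (limma adjusted p = 0.37). Of 15 genes that brake the cycle, Cdkn2a and Cdkn2b, inhibitors of the G1 cyclin kinases, were lower by changes of -2.42 and -2.40, and Ccng1 was higher at 1.45. Of 5 G1 cyclins, Ccnd2 was lower at -1.79. The calls were thus 3 lower and 1 higher of the 16 regulators, 2 and 1 of the 15 brakes, and 1 and 0 of the 5 G1 cyclins. Of all genes 6.47% passed as lower and 6.08% as higher, and these short lists were not tested against those shares. No gene of these 3 lists passed in DA3, in MBA-15 or in the difference of the changes, where 0.0401%, 0.848% and 0.0602% of all genes did. The comparison with DA3 alone shares its arrays with both co-culture comparisons, so the values of a gene in them are not independent.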

How the data were processed

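The authors deposited log2 expression values for each probe set. RMA and Partek 6.5 are named in the submitters' processing notes, and their parameters are not given in the sources used here. The log2 scale was read from the range of the values. Array medians over all probe sets lay between 4.479 and 4.642, and depth does not apply to arrays, whose number limits the precision. Of 35556 probe sets, the platform annotation gave 1 symbol to 21789 and several to 1621, and 12146 have no entry in it. For each of 19938 genes the probe set with the highest mean was kept, with no filter on dim genes, and all 39 members were tested.

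Groups came from the sample titles. Contrasts of 4 group means were fitted to 8 arrays with limma 3.58.1 in R 4.3.3 (4 residual and 2.6 prior degrees of freedom), with p-values two-sided and Benjamini-Hochberg adjusted over all genes, at 0.05. The fit was also run on simulated data with independent noise and planted DA3 changes, and its outcome is not given here. Those data held no intensity trend, assay effect or mixing of lines, so they do not cover these limits of the arrays. SE is limma's standard error of a change. Genes of like expression are the 4945 other genes in the 5 of 20 equal bins of mean expression that hold members. The genes named are those that passed, the largest change of each role and 6 fixed genes (Cdk1, Aurka, Plk1, Cdc20, Top2a and Birc5), and the others named were chosen after their values were seen. The members, the lists and the tests were chosen with earlier results of these data known. Other settings are in the closing section.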

Additional observations from a re-analysis of the deposited data

How the results depend on the processing

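Other settings were tried one at a time, and mixing at the lower DA3 share and leaving out both arrays labelled MBA-15 alone were chosen after seeing the data. For DA3 no member passed in any of them, and the median change kept its sign (-0.35 to -0.26 without 1 array), at -0.053 with quantile normalization again. Less like-expression genes it was -0.137 to 0.025 without 1 array. For MBA-15, the count of members called lower was 0 with only the compared groups in the fit, with a prior that follows intensity, and with DA3 values mixed in at either share, and 0 to 1 without 1 array. The median change for MBA-15 was -0.165 with quantile normalization, -0.103 with arrays centred on their medians, 0.023 and -0.086 with DA3 values mixed in at the higher and the lower share, -0.172 and -0.175 within assays 3 and 4, and -0.293 to -0.045 without 1 array. Less like-expression genes it was -0.215 to 0.068. The median of the difference of changes was -0.041 with quantile normalization, -0.343 with centring and -0.275 to -0.068 without 1 array, or -0.134 to 0.076 less like-expression genes. Centring moved the median of all genes from 0.04 to 0.15 for MBA-15 and from 0.02 to -0.13 for the difference. For MBA-15 co-culture against DA3 alone, members called lower were 10 with array weights, 3 with a prior that follows intensity and 3 to 8 without 1 array. Members called higher were 0 with dim genes left out and with that prior, and 0 to 1 without 1 array. The median there was -0.302 and -0.376 within assays 3 and 4, and -0.478 to -0.287 without 1 array, or -0.417 to -0.110 less like-expression genes. Without both arrays labelled MBA-15 alone the 6 lower members remained. The cause of these shifts was not tested.

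The replicate numbers were used as a block in another fit. Replicates 1 and 2 are assays 4 and 3 in every group except DA3 co-culture, where they are assays 3 and 5. Deviations of same-numbered arrays from their group means had correlations from -0.413 to 0.311, and both ends involve DA3 co-culture. Among the other groups the correlations were 0.135, 0.213 and 0.0102. These values do not settle whether the numbers pair the samples. With the replicate block 6 members were called lower against DA3 alone, 5 of them as without it, 1 for MBA-15 and 0 for DA3, and over all genes the calls against DA3 alone went from 2503 to 2440.

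Over all genes, other settings gave 0 to 120 calls for DA3 (8 in the fit reported), 0 to 326 for MBA-15 (169), 0 to 49 for the difference (12) and 995 to 3136 against DA3 alone (2503).

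Of 773 checks of single genes, 26 were counted as a change of sign, in none of which the gene passed. Within a single assay a change of sign was counted only for genes that had passed, so 26 is too low. Cdk1 for MBA-15 in assay 4, at 7.87 in co-culture against 8.04, was not counted, although its change in the fit reported was 0.21. For DA3 the counted changes were Espl1 with assay as a block (0.110), Cdk1 (0.203), Aurka (0.007), Cdc20 (0.043) and Birc5 (0.002) with quantile normalization. For MBA-15 they were Top2a with centring (0.087) and with the mean of its probe sets (0.306), and with the DA3 share mixed in Cdc20 (0.081), Top2a (0.063), Birc5 (0.067), Kif23 (0.037), Cenpa (0.010), Tpx2 (0.137) and Ube2c (0.006), and at the lower share Cdc20 (0.039) and Top2a (0.037). Against DA3 alone it was Top2a with the mean of its probe sets (0.161). Without 1 array, Espl1 ranged from -0.746 to 0.058 and Birc5 from -0.564 to 0.023 for DA3. For MBA-15 the ranges were -0.467 to 0.251 for Cdc20, -0.275 to 0.236 for Top2a, -0.744 to 0.016 for Birc5 and -0.088 to 0.499 for Cdk1, and against DA3 alone -0.048 to 0.539 for Cdk1 and -0.632 to 0.086 for Cdc20.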
